A study of Homo sapiens with 6 samples.

Results

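Cassette exons were examined in the genes of ubiquitin conjugation and removal and of the proteasome. A cassette exon can be kept in the mature transcript or skipped, and each event of the table describes one such choice. The members were all events whose gene symbol began with USP, UBE, CUL, FBXO or FBXW followed by a digit, or with PSM followed by a letter from A to G. There were 413 such events in 133 genes, of 24725 events in 7969 named genes. The USP symbols gave 123 events in 34 genes, UBE 113 in 34, CUL 16 in 8, FBXO and FBXW together 51 in 21, and PSM 110 in 36. Several events can describe one exon with different flanking exons, so the 413 events fell in 339 distinct outer regions and are not independent of each other. A symbol rule also caught names that are no part of the system, such as PSMC3IP, which is not a proteasome subunit, and the readthrough gene UBE2F-SCLY. Whether the reads of UBE2F-SCLY are shared with UBE2F was not tested.

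RNA was sequenced from 6 samples of MDA-MB-231-BrM2a cells, a brain-metastatic derivative of the human breast cancer line MDA-MB-231. The 3 control samples were non-clonal cells with the empty doxycycline-responsive vector pRetroX-Tight-Pur, and the 3 RBM47 samples were a single-cell clone in which the same system drove Flag-tagged wild-type RBM47, an RNA-binding protein. All 6 received 10 ng/ml doxycycline for 3 days, so a difference between the groups can come from RBM47 or from the clone, and these cannot be told apart. The labels do not say whether replicates were separate cultures, and no p-value reaches beyond these samples. Those from reads pooled over a group do not measure the spread between its samples.

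Ubiquitin is passed from an activating enzyme to a conjugating enzyme (most UBE genes) and then, with the help of a ligase, to a target protein. Cullins are the scaffolds of a large class of ligases, in some of which F-box proteins (FBXO, FBXW) select the target. The USP enzymes cut ubiquitin off again. The proteasome degrades ubiquitinated proteins. Its core particle is built of PSMA and PSMB subunits, its regulatory particle of PSMC ATPases and most PSMD proteins, and PSME, PSMF and PSMG genes encode activators, an inhibitor and assembly chaperones.

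The inclusion rate of an event sets reads that include the exon against reads that skip it between the event's flanking exons. It runs from 0 to 1, was given for each sample, and is not the fraction of all transcripts of the gene. Reads over the including and skipping junctions were given only as totals over the 3 samples of a group, so the depth behind a single sample's rate is unknown. Over all events the totals were 26498401 reads in control and 24116982 in RBM47, and over the member events 696179 and 710043. Member events held 39 to 41935 reads in both groups together, with a median of 1207. In the deposited table the sample rates of 1392 events did not give the group averages printed in their row. Where possible they were returned to another row by its printed averages, which left all 413 member events with rates. This concerned 24 of the 413, of which 21 were matched by both averages and 3 by the RBM47 average alone. Neither the level of RBM47 itself nor markers of the cell line were analysed here, since the table holds exon rates. RBM47 replicate 2 stood apart in one respect: among the 73 member events whose mean rate over all samples lay from 0.1 to 0.9, 16.4% of its rates sat at 0 or 1. The other 5 samples had 1.37% to 6.85%, and over all such events the shares were 14.8% and 6.10% to 7.63%.

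Few of these exons were alternative in either group. Of the 413 member events, 257 (62.2%) had a mean rate over the 6 samples above 0.9, 83 had one below 0.1, and 73 (17.7%) lay between. Over all events 55.7% lay above 0.9 and 24.3% between. The PSM genes had the highest share near full inclusion, 77.3%, and the F-box genes the lowest, 51.0%. The inclusion rate was higher in RBM47 in 172 member events, lower in 183 and equal in 58. The difference, RBM47 minus control, was smaller than 0.05 in size in 357 events (86.4%), and its median was 0 over the members as over all events. The median size of the difference was 0.00786 for the members and 0.0114 for all events.

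**Figure D1:**
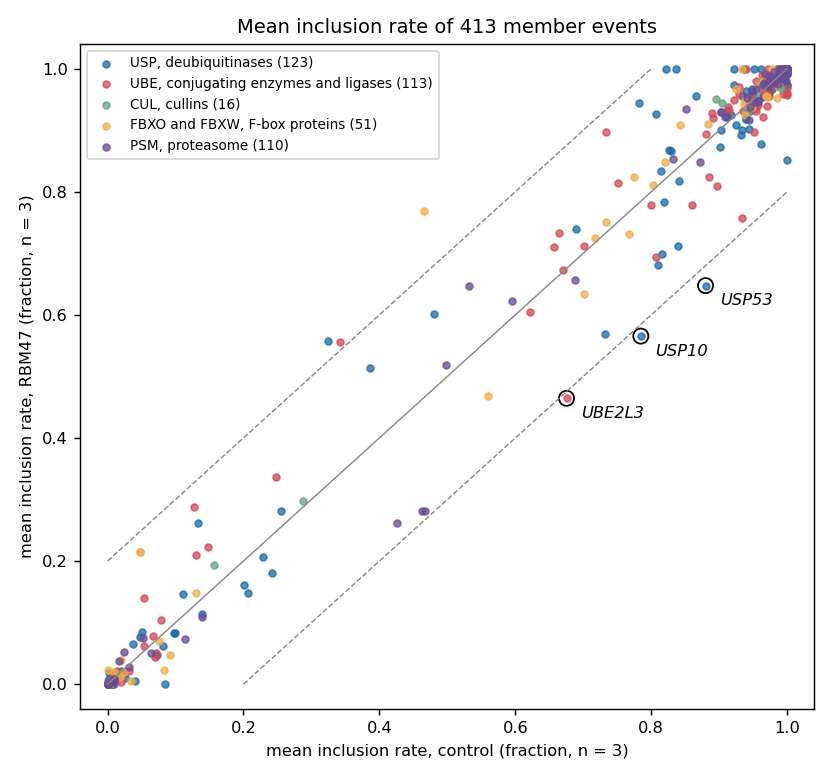
Mean inclusion rate of each of the 413 member events in control (horizontal axis) and RBM47 (vertical axis), both as fractions over 3 samples and coloured by family. The solid line marks equal rates and the dashed lines a difference of 0.2; most points lie on the diagonal at either end, and the 3 circled events passed the study's criteria.

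The study called a changed exon by 3 criteria, an unadjusted p of at most 0.05 in Fisher's exact test on the read totals, no fewer than 10 reads and mean rates at least 0.2 apart. By these criteria 3 member events were lower in RBM47 (USP10, UBE2L3 and USP53) and 0 were higher. They are 0.726% of the members, beside 1.41% of all 24708 events with rates, and 0.793% of all events were called lower. The rates of all 3 had been re-matched by the RBM47 average alone, and their control rates do not give the printed control average. Among the member events aligned as deposited, 0 were called in either direction. Fisher's test pools the samples and does not see the spread between them. limma, which does, was run on the sample rates of the 6000 events in the intermediate range of 0.1 to 0.9. A call took an adjusted p under 0.05 and mean rates at least 0.2 apart. limma called 0 of the 73 member events in this range, beside 1.53% of all events tested. At an unadjusted limma p under 0.05 there were 6 member events (8.22%, beside 12.0% of all tested), in USP10, UBE2V1, USP4, PSMD4 (2 events that share their outer ends) and UBE2D1. Only the event in UBE2D1 was higher in RBM47.

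The sequences of 4 exons are shown because the exons of USP10 and UBE2L3 carry the called differences of coding exons, that of UBE2D1 lies just under the size threshold in the other direction, and that of UBE2V1 had the lowest limma adjusted p of the 73 members tested. Exon bases are in capitals, and the 20 bases before and 8 bases after the exon, in lower case, are intron. The table's coordinates come with no genome build, so each exon was found in the GRCh37 annotation as the only exon of that gene whose neighbouring exons span the same distance as the event.
USP10: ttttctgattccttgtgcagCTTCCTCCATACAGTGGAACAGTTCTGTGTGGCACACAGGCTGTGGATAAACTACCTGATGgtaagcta
UBE2L3: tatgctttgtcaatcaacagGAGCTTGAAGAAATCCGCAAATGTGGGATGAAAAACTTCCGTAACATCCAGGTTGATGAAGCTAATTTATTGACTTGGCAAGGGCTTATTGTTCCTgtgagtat
UBE2D1: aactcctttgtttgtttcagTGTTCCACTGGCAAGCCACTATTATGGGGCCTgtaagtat
UBE2V1: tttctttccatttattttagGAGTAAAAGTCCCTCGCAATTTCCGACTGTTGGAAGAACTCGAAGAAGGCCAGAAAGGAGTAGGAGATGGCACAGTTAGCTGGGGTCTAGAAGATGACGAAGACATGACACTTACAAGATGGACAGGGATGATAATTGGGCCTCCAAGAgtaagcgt

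The USP10 exon lies at chr16:84773915-84773975 on the plus strand, UBE2L3 at chr22:21947150-21947245 (plus), UBE2D1 at chr10:60121255-60121286 (plus) and UBE2V1 at chr20:48713209-48713357 (minus), all within coding sequence. Each intron ends in AG before the exon and begins with GT after it. The UBE2L3 exon has 96 bases, a multiple of 3, so leaving it out keeps the reading frame. The exons of USP10 (61 bases), UBE2D1 (32) and UBE2V1 (149) are not multiples of 3. Across the 213 member events with such a match, 176 exons were coding and 81 of these (46.0%) were multiples of 3, beside 49.3% of the coding exons over all events. A run of 5 T, TTTTT, searched on the transcript strand only, was present in the 100 intron bases before the exon in 47.9% of the 213 member exons and 40.0% of all 11336 matched exons. In the 100 bases after the exon it was present in 31.9% and 29.0%. Of the 4 exons printed, UBE2L3 had the run on both sides, and the other 3 on neither.

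USP10 encodes a deubiquitinase that acts on p53 and binds the stress granule protein G3BP. Its event (chromosome 16, 83324541 to 83349913 in the table) had inclusion rates of 0.755, 0.784 and 0.815 in control and 0.516, 0.600 and 0.580 in RBM47. Every RBM47 sample lay below every control sample. The mean was 0.785 ± 0.0299 in control and 0.565 ± 0.0438 in RBM47 (SD, n = 3 each), a difference of -0.219. Control had 110 including and 15 skipping reads, and RBM47 had 97 and 38 (Fisher's exact test, p = 0.00124). The limma p was 0.0197, and after Benjamini-Hochberg adjustment over all events tested it was 0.274, which misses the threshold. Leaving out RBM47 replicate 1 gave -0.194, just under the required size, and leaving out any other sample gave -0.204 to -0.236.

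Other USP10 events that use the same exon were read alongside. The including total of the called event equalled the sum of 2 totals printed for other USP10 events, 99 control and 88 RBM47 reads on the upstream side and 11 and 9 on the downstream side. The same 61-base exon was also the upstream exon of a far deeper USP10 event, with the same downstream exon, that held 4623 including reads in control and 5186 in RBM47. That event was nearly always included, with a mean rate of 0.974 ± 0.0112 in control and 0.972 ± 0.0277 in RBM47. The rates of the called event therefore do not give the share of USP10 transcripts that hold the 61-base exon. Of the 12 USP10 events in the table, the called one was the only one whose groups did not overlap.

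UBE2L3 encodes a conjugating enzyme that works with HECT and RBR ligases such as Parkin. Its event (chromosome 22, 20252002 to 20295331) had rates of 0.556, 0.756 and 0.714 in control and 0.259, 0.562 and 0.571 in RBM47. The groups overlapped, since RBM47 replicates 2 and 3 lay just above the lowest control sample. The means were 0.675 ± 0.106 and 0.464 ± 0.178 (SD, n = 3), a difference of -0.211, with 89 reads including and 21 skipping the exon in control and 61 and 36 in RBM47 (Fisher's exact test, p = 0.00488). The limma adjusted p was 0.533. Leaving out RBM47 replicate 1 (-0.108), control replicate 2 (-0.171) or control replicate 3 (-0.191) brought it under the size threshold.

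USP53 encodes a USP family member found at tight junctions. Its event (chromosome 4, 120358152 to 120386031) had rates of 0.846, 0.960 and 0.833 in control and 0.692, 1.000 and 0.25 in RBM47. The RBM47 samples spread over more than the whole control range, with the highest and the lowest of the 6 values both among them. The difference was -0.232, with 259 reads including and 3 skipping the exon in control and 79 and 8 in RBM47 (Fisher's exact test, p = 0.000959), and the limma adjusted p was 0.769. With RBM47 replicate 3 left out it was -0.0337, and without control replicate 2 it was -0.192. Its exon in the annotation has 686 bases and is partly coding.

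The sample rates of all 3 called events had stood in another row and were returned by the RBM47 average alone. In that step the printed control average was set aside, and the control rates used here do not give it. At least 1 of the nearest rows aligned as deposited was of the same gene for the rates used for USP10 and USP53. For those used for UBE2L3 none was. Taken instead from the row as deposited, the difference was 0.257 for USP10, 0.212 for UBE2L3 and -0.502 for USP53. The read totals alone gave -0.225, -0.221 and -0.146.

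**Figure D2:**
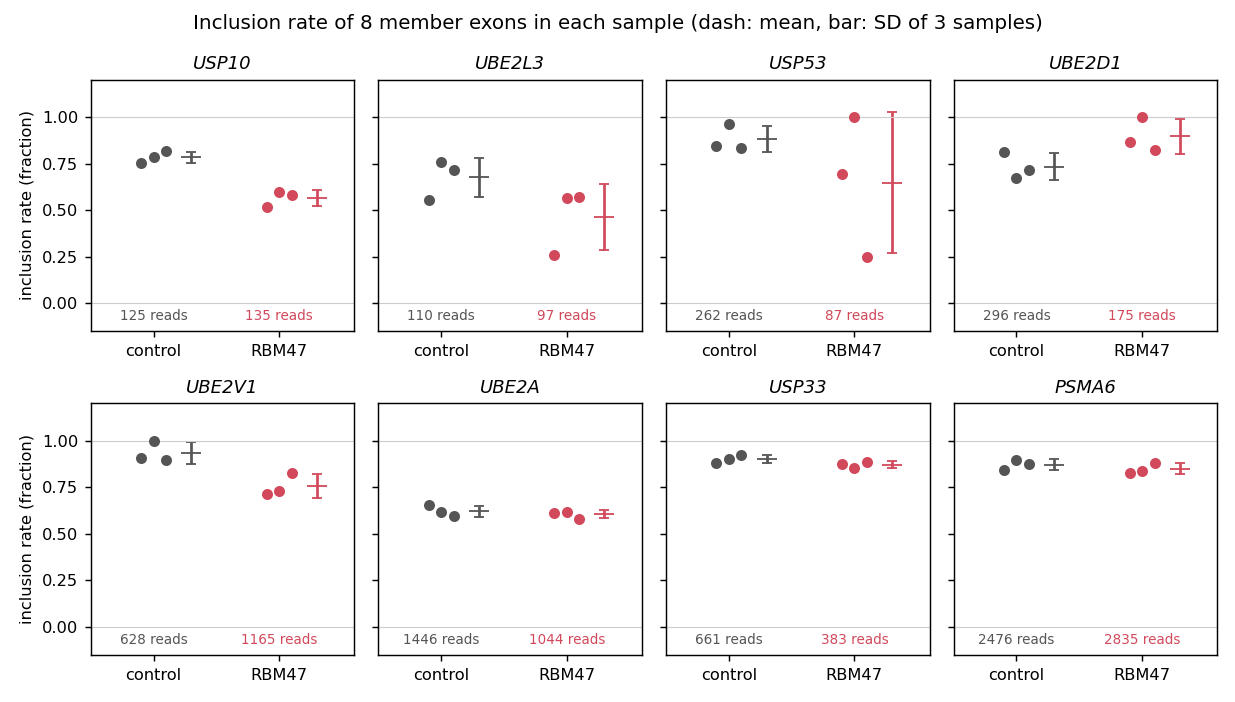
Inclusion rate (fraction, vertical axis) of 8 member exons in each control and RBM47 sample, with the mean and SD of the 3 samples beside the points and the pooled reads of the group below. The groups lie apart in USP10, UBE2D1 and UBE2V1 and overlap in UBE2L3 and USP53; UBE2A, USP33 and PSMA6 are well-read exons with close group means.

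Just inside the size threshold lay UBE2L3, and just outside it lay 3 events that met the Fisher threshold and differed by 0.15 to 0.2, all higher in RBM47. UBE2D1 encodes a conjugating enzyme used by many ligases. Its event (chromosome 10, 59791103 to 59793451) had rates of 0.811, 0.670 and 0.718 in control and 0.865, 1.000 and 0.824 in RBM47. All RBM47 samples lay above all control samples, though the lowest RBM47 and highest control samples were close. The difference was 0.163 (0.733 ± 0.0715 against 0.896 ± 0.0922, SD, n = 3; Fisher's exact test p = 0.00263, limma adjusted p = 0.384), with 247 reads including and 49 skipping the exon in control and 163 and 12 in RBM47. Leaving out 1 sample at a time gave 0.111 (without RBM47 replicate 2) to 0.202 (without control replicate 1). The UBE2D1 rates were re-matched by both averages, and those in the row as deposited gave -0.252.

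UBE3A is the HECT ligase whose loss causes Angelman syndrome. Its event (chromosome 15, 23201700 to 23205446) had rates of 0.156, 0.149 and 0.0769 in control and 0.273, 0.50 and 0.0909 in RBM47, which overlap, on 160 and 52 reads. The USP54 event at 74949560 to 74953513 on chromosome 10 had 0.574, 0.943 and 0.829 in control and 0.956, 1.000 and 0.875 in RBM47. There control replicate 1 was the low sample, and control replicate 2 reached into the RBM47 range. The differences were 0.161 and 0.162, and the limma adjusted p was 0.634 and 0.525. Each depended on 1 sample: UBE3A was at 0.0546 without RBM47 replicate 2 and at 0.259 without RBM47 replicate 3, and USP54 was at 0.0578 without control replicate 1.

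Other members with large differences in rate were chosen after their values were seen, and none passed both the size and the Fisher threshold. UBE2V1 is the catalytically inactive partner with which UBE2N builds the ubiquitin chains used in signalling, and its symbol overlaps the readthrough gene TMEM189-UBE2V1. In its event from 48134072 to 48165564 on chromosome 20 the rates were 0.905, 1.000 and 0.895 in control and 0.714, 0.727 and 0.829 in RBM47. The groups did not overlap, and the difference was -0.176 (limma adjusted p = 0.149, the lowest of the 73 tested). The pooled reads, 626 including and 2 skipping against 1155 and 10, gave only -0.0107 (Fisher's exact test, p = 0.234).

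PSMD4, the ubiquitin receptor of the regulatory particle, likewise differed in its rates more than in its pooled reads. The rates of its event (chromosome 1, 149493873 to 149503127) were 0.529, 0.489 and 0.382 in control and 0.321, 0.143 and 0.380 in RBM47, so the groups did not overlap but met at 0.38. The difference of the mean rates was -0.185 (limma adjusted p = 0.282), while the pooled reads, 446 including and 41 skipping against 881 and 74, gave 0.0115. Its companion event with 451 control including reads gave -0.182.

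The F-box gene FBXO4 had the largest difference of all members. Its rates were 0.385, 0.680 and 0.333 in control and 0.545, 1.000 and 0.760 in RBM47, a difference of 0.303 with overlapping groups (limma adjusted p = 0.466). With 77 reads including and 10 skipping the exon in control and 74 and 8 in RBM47, the pooled difference was 0.0284. For UBE2J2, an enzyme of the endoplasmic reticulum membrane, the difference of 0.214 came with a rate of 1.000 in RBM47 replicate 2 beside 0.394 and 0.273 in the other RBM47 samples and 0.308 to 0.385 in control. Without that sample it was -0.00855.

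In USP54 (74930418 to 74935189) the rates were 0.451, 0.257 and 0.267 in control and 0.562, 0.692 and 0.419 in RBM47. The difference was 0.233 and the groups overlapped (Fisher's exact test p = 0.0578, limma adjusted p = 0.444). In USP4, a nuclear and cytoplasmic deubiquitinase, an exon of 141 bases (event 49323056 to 49337199 on chromosome 3) had 0.722, 0.861 and 0.845 in control and 0.732, 0.641 and 0.669 in RBM47. RBM47 replicate 1 lay just above the lowest control sample. The difference of -0.128 had a Fisher p of 0.00783 and a limma adjusted p of 0.358.

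For the 73 member events of intermediate rate, the difference from the mean sample rates and the difference from the pooled reads had the same sign in 64 events, with r = 0.812 across events, which share samples and often junctions. They differed by more than 0.1 in 5 events. In some events, among them the called USP53 event and several well-read ones, the rate from the pooled reads also lay outside the range of the sample rates. In control it was 0.845 for the first PSMD4 event and 0.794 for FBXO4, above all 3 sample rates of each. In RBM47 it was 0.983 for the UBE2V1 event ending at 48165564, again above all 3. For USP53 it was 0.977 in control, where the highest sample rate was 0.96. For the better-read FBXO38 event it was 0.894 in control, where the highest sample rate was 0.788. Sums of the reads behind the rates would lie within that range, so rates and totals there cannot rest on the same reads alone. A UBE2D3 event (chromosome 4, 103937550 to 103939768) had a re-matched rate of 0 in all 6 samples beside 19 including reads in control and 3 in RBM47, and the rates in its row as deposited gave 0.0429.

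**Figure D3:**
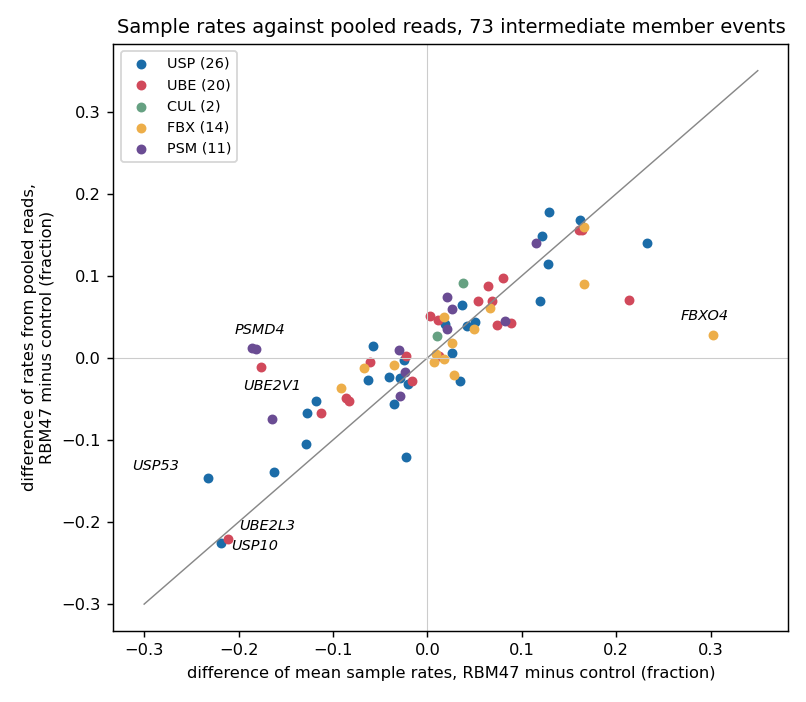
Difference in inclusion rate, RBM47 minus control (fraction), from the mean sample rates (horizontal axis) and from the pooled group reads (vertical axis), for the 73 member events of intermediate rate. Points on the line have equal values; USP10 and UBE2L3 lie close to it at the lower left, while FBXO4, PSMD4 and UBE2V1 lie near 0 on the vertical axis.

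The best-read alternative exons of each family had close mean rates in the groups, each under 0.1 apart. In UBE2A, a conjugating enzyme of DNA damage tolerance, the 90-base coding exon had rates of 0.654, 0.617 and 0.595 in control and 0.614, 0.619 and 0.582 in RBM47 on 2490 reads. The difference was -0.0167. In PSMA6, a subunit of the core particle's alpha ring, the rates were 0.842, 0.899 and 0.876 against 0.825, 0.838 and 0.882 on 5311 reads.

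The values of the regulatory particle subunit PSMD6 were 0.857, 0.790 and 0.850 in control and 0.872, 0.870 and 0.820 in RBM47 on 5626 reads. USP33, which is known for deubiquitinating the receptor ROBO1, had 0.880, 0.90 and 0.924 against 0.874, 0.854 and 0.888. In all 4 genes the groups overlapped, and the difference was between -0.0291 (USP33) and 0.0212 (PSMD6). The PSMD6 rates were re-matched, and those in the row as deposited gave -0.0499.

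CUL7 had rates of 0.151, 0.149 and 0.169 in control and 0.188, 0.149 and 0.245 in RBM47, overlapping at the lowest sample. For CUL2, the scaffold of the VHL ligase, the exon was untranslated and the values spread from 0.222 to 0.415 in control and from 0.20 to 0.433 in RBM47. The other well-read exons, in USP4, UBE2V1, FBXO18, FBXO38 and PSMG4, had differences of -0.0288 (PSMG4) to 0.0504 (USP4). FBXO18 is better known as a DNA helicase. Both UBE2V1 events were re-matched, and the rates in the row as deposited gave -0.0835 and -0.00500. The lowest limma adjusted p among all these well-read events was 0.574, in USP4. Fisher's exact test on the pooled reads gave p = 0.00540 for CUL7, 0.00234 for PSMD6, 0.00303 for PSMG4 and 0.00440 and 0.00588 for UBE2V1. In CUL7 the pooled reads differed by 0.0918 where the mean rates differed by 0.0373.

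Small differences were also counted. A Fisher p of at most 0.05 at any size of difference was found in 59 member events (14.3%, beside 14.4% of all events), of which 36 were higher in RBM47, 22 lower and 1 equal in mean rate. Only 9 of the 59 differed by 0.1 or more. Of the PSM events 25 of 110 (22.7%) had such a p, with a median size of 0.0131, a maximum of 0.0400 and a median of 7172 reads per event. Of the USP events 8 of 123 had one, with a median size of 0.129 on a median of 302.5 reads, and of the F-box events 1 of 51. The median reads over all events of a family were 6008.5 for PSM, 315 for USP and 509 for F-box genes, and their part in these shares was not tested.

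No sample of one group reached into the range of the other in 38 member events (9.20%, beside 9.93% of all events), 12 higher and 26 lower in RBM47, beside 1156 higher and 1298 lower over all events. The 38 fell in 29 outer regions, and 5 of the lower ones were events of 1 PSMD2 region. They were 18 PSM, 15 UBE, 4 USP, 1 CUL and 0 F-box events. PSMB5 encodes the chymotrypsin-like catalytic subunit of the core particle. An 85-base coding exon of it that was nearly always skipped had rates of 0.0135, 0.0209 and 0.0148 in control and 0.0418, 0.0263 and 0.0455 in RBM47. All RBM47 samples were higher, by 0.0214 on average (Fisher's exact test, p = 2.09e-13). These rates were re-matched by both averages. The pooled reads behind the p-value gave 0.0305 in control and 0.0565 in RBM47, above every sample rate of the same group.

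In PSMB7, the trypsin-like subunit, a 116-base coding exon had 0.959, 0.958 and 0.946 in control and 0.972, 0.969 and 0.961 in RBM47, a difference of 0.0129 with the groups apart. The proteasome assembly factor PSMG4 went the other way in an event on 656 and 825 reads. Its rates were 0.146, 0.0844 and 0.109 in control and 0.0656, 0.0787 and 0.0756 in RBM47, and the difference of -0.0400 was the largest in a proteasome event with a Fisher p of at most 0.05.

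Among conjugating enzymes, UBE2C, which works with the anaphase-promoting complex, had 0.932, 0.972 and 0.958 in control and 0.975, 0.984 and 0.981 in RBM47 (Fisher's exact test, p = 2.96e-05). In CUL1, the scaffold of the ligases that carry F-box proteins, a 51-base coding exon had 0.987, 0.994 and 0.993 in control and 0.964, 0.970 and 0.973 in RBM47. These genes were chosen after their values were seen, and each of these differences was under 0.05.

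The read totals per gene were also compared between the groups. These are reads over cassette exon junctions, pooled over samples and counted again for each event that uses a junction. They have no replicates and no test, and why the reads of a gene differ cannot be told. The ratios were not scaled to the depth of the groups, and over all events RBM47 had 0.910 of the control reads. Of the 133 member genes, 128 had at least 200 reads. The median ratio of RBM47 to control reads was 0.830 over these genes and 0.865 over the 6994 genes of the table with as many reads.

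The proteasome genes, leaving out PSMC3IP, lay highest, with a median of 1.03, and 27 of 34 were above the median of all genes. The 12 core particle genes (PSMA, PSMB) had a median of 1.28 and lay between 0.928 and 1.90, all above the median of all genes. The highest was PSMB9, an inducible subunit of the immunoproteasome, with 774 reads in control and 1474 in RBM47. The 15 PSMC and PSMD genes had a median of 0.924, and 0.921 without the assembly chaperones PSMD5, PSMD9 and PSMD10. The lowest of them was the ATPase PSMC6 with 1420 and 640 reads.

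The USP genes lay lower, with a median of 0.697 and 9 of 33 above the median of all genes. USP53 had 388 reads in control and 122 in RBM47, and USP8, which acts on endosomal cargo, had 1263 and 483. The medians of the UBE, CUL and F-box genes were 0.821, 0.664 and 0.829. Over all genes the ratio also rose with the reads per event, from 0.752 in the 20% of genes with the fewest reads to 0.963 in the 20% with the most, and fell with the span of the events, from 0.994 to 0.764. Among those with the most reads the 26 proteasome genes had 1.06, and among those with the fewest the 13 USP genes had 0.577. The part of depth and span in these ratios was not tested further.

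**Figure D4:**
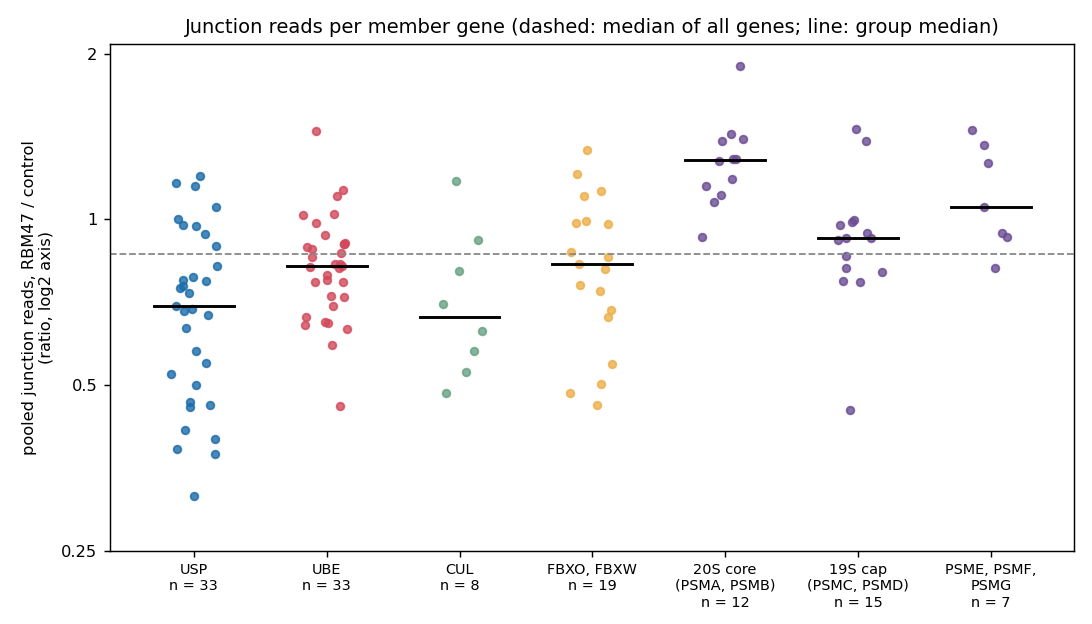
Ratio of pooled cassette junction reads, RBM47 to control (log2 axis), for each of the member genes with at least 200 reads, by family and, for the proteasome, by subcomplex, leaving out PSMC3IP. Black lines are group medians and the dashed line is the median of all genes, 0.865; all 12 core particle genes lie above it, and 9 of 33 USP genes do.

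Other genes of the pathway were taken from 6 lists of 181 symbols that hold no member: ubiquitin precursors and shuttles, activating enzymes and ubiquitin-like pathways, other deubiquitinases, cullin partners with the COP9 signalosome and further F-box genes, HECT and RBR ligases, and the anaphase-promoting complex. They had 436 events in 130 genes. By the study's criteria 0 were higher and 2 lower in RBM47 (0.459%, beside 1.41% of all events), ATG12, a ubiquitin-like protein of autophagy (-0.300), and the SUMO protease SENP6 (-0.224). limma called 0 of the 89 tested, of which 7 had an unadjusted p under 0.05 (12.0% of all tested events did). The rates of both called events were re-matched, those of ATG12 by the RBM47 average alone, and the pooled reads gave -0.176 and -0.170. Both called events stood in the list of activating enzymes and ubiquitin-like pathways, and in both the groups overlapped.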

How the data were processed

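Groups and replicate numbers came from the sample labels. The authors deposited 1 table with 1 line per cassette exon event. It holds inclusion rates per sample, each a fraction (including reads over including reads plus 2 times the skipping reads), the group averages, and counts of including and skipping reads that the authors summed over the 3 samples of a group. The authors also deposited the difference, an odds ratio and an unadjusted p-value of Fisher's exact test, none of which was used. The labels name TopHat. The genome build of the table is not given in the sources used here.

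Of the 24725 rows, 1392 held rates that did not average to the printed averages (tolerance 3e-09, at 9 decimals). Of these, 1122 were matched by both averages and 253 by the RBM47 average, and 17 were left without rates. Fisher's exact test (two-sided) was computed with scipy 1.17.1, and adjustment used statsmodels 0.14.6. limma 3.58.1 (R 4.3.3) was run on arcsine square root rates, with log2 reads as the variance trend. Both ran on the whole table. In simulated data limma recovered 28 of 100 changes of 0.3 and 60 of 100 of 0.5 among the 6219 simulated events in its range, with 2 unchanged events called. The study criteria, simulated on 24708 events, recovered 76 and 99, with 11 such calls. Whether these counts hold for read totals that vary between samples as in the real data was not tested. Annotation and sequence are from GENCODE on GRCh37.

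Named were the called events, the 3 best-read uncalled alternative events of each family, and events with a difference of 0.15 to 0.2 and a Fisher p of at most 0.05. Other named events were chosen after their values were seen. The members, the lists and the form of the limma test were chosen with earlier results of these data known. No counts per sample were used, so no interval is given for a single rate.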

Additional observations from a re-analysis of the deposited data

How the results depend on the processing

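By the study's criteria, 0 member events were higher and 3 lower. With a difference of at least 0.1 in place of 0.2, 5 were higher, and with at least 0.3, 0 were lower. With the rates left in the row as deposited 4 were higher, and USP10 (0.257) and UBE2L3 (0.212) reversed. With only the events aligned as deposited 0 were lower, since all 3 called events had been re-matched. When each sample was left out in turn, 0 to 1 were higher and 1 to 3 lower. Only the size criterion was recomputed there, since the reads are group totals that keep the left-out sample in Fisher's test. The higher ones were UBE2D1 without control replicate 1 (0.202), USP54 without control replicate 2 (0.242) and UBE3A without RBM47 replicate 3 (0.259). Other omissions lowered USP54 to 0.0578 (control replicate 1) and UBE3A to 0.0546 (RBM47 replicate 2). Without control replicate 2 only USP10 stayed lower, and without RBM47 replicate 1 only USP53 did, where USP10 was at -0.194. With Fisher p adjusted over all events, USP10 (0.0279) and USP53 (0.0230) stayed and UBE2L3 (0.0774) did not.

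limma called 0 member events higher and 0 lower under all settings but one. With all mean rates tested and no minimum difference, a setting chosen after seeing the data, 1 was higher, USP28 (rates of 0.923 to 0.943 in control and 1 in RBM47, adjusted p = 0.0148 by limma, on 93 and 40 reads). With the replicate block it called 0 in either direction, and the lowest adjusted p was 0.187. The replicate numbers did not pair the samples: deviations of same-numbered samples had r = -0.0225, -0.00550 and 0.0139. Of 258 values of the 28 named events under alternatives, 239 kept their call or moved by less than the SD between replicates, 7 fell below a threshold, 2 called values reversed and 10 moved further. The sign changed in 25 of the 204 that were differences. In 19 of these the difference was under 0.05, and the other 6 were USP10, UBE2L3 and UBE2D1 (-0.252) with rates as deposited, both PSMD4 events from pooled reads, and UBE2J2 without RBM47 replicate 2 (-0.00855). The median difference over members stayed at 0, and the mean was 0.00175.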
